A study of Erigeron canadensis with 32 samples.

Results

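Light-harvesting antenna genes encode the chlorophyll-binding proteins that collect light for photosynthesis. They were picked from the deposited annotation of *Erigeron canadensis* L. (horseweed), as the predicted genes whose *Arabidopsis thaliana* description names a light-harvesting or chlorophyll *a*/*b*-binding protein. This gave 40 of 54498 predicted genes, with 19 different *A. thaliana* best hits. Of them, 8 are *LHCA* genes, 19 are *LHCB* genes and 13 are LHC-like genes, a group of related proteins (*PSBS*, *ELIP1*, *ELIP2*, *LIL3:1* and *LIL3:2*) that share the membrane fold of the family. The rule used the annotation text alone and no measured value, but it was set with earlier results of these data known.

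RNA was sequenced from rosette leaves of a glyphosate-resistant biotype grown in a glasshouse, the background that treated and control plants shared. The sprays were water, 2,4-D, dicamba and halauxifen-methyl, and non-ionic surfactant was part of every spray, the water control included. Single leaves were frozen at 1 or 6 h after treatment (HAT), which made 8 groups of 4 libraries, each library from a different plant. The herbicides are synthetic auxins, molecules that act through the receptors of the plant hormone auxin, and they were applied at rates that differ between them, so values for the herbicides are set side by side. The series asks how the leaf transcriptome responds to each.

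In plants, the LHCA proteins surround photosystem I and the LHCB proteins surround photosystem II, the membrane complexes in which light energy drives electron transfer. LHCB1, LHCB2 and LHCB3 form the trimers of the major antenna, and LHCB4, LHCB5 and LHCB6 are the minor antenna proteins that link these trimers to the photosystem core. All are encoded in the nucleus, imported into the chloroplast, carried to the thylakoid membrane by the chloroplast signal recognition particle, and folded there with chlorophyll *a* and chlorophyll *b*.

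Antenna transcripts took a large part of each library. Total counts per library ranged from 12588842 to 29111958, and of these the 40 genes took 15.2% ± 1.79 (SD, n = 4) in water at 1 HAT and 14.2% ± 2.22 in water at 6 HAT. At 6 HAT the share was 9.18% ± 1.31 under 2,4-D, 7.29% ± 1.57 under dicamba and 7.10% ± 2.22 under halauxifen-methyl. Further levels are given as CPM, counts scaled by library size with TMM across the 32 libraries, and 30 of the 40 genes (4 *LHCA*, 19 *LHCB* and 7 LHC-like) passed the low-count filter across all libraries. In each comparison with water 29 were tested. In whole leaves, fewer mesophyll cells and less RNA of a gene per cell cannot be told apart.

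The levels of the antenna genes spanned several orders of magnitude, and a few genes held most of the counts. Per kilobase of coding sequence in water at 1 HAT, HW_47187_g, an *LHCB1.3* copy (CAB1 in the annotation), had the highest level, with 45379 ± 9409 CPM per kb (SD, n = 4). It was followed by HW_46434_g, another *LHCB1.3* copy, with 36837 ± 8538, and by the *LHCB2.1* gene HW_44270_g with 27913 ± 7206, and the ranges of these neighbours in the order overlapped. The next levels were those of the *LHCB1.3* copy HW_20580_g (15630 ± 3256), the *LHCA3* copy HW_42835_g (14706 ± 3072) and the *LHCB4.2* gene HW_39414_g (9792 ± 2409). The lengths are those of the predicted genes, 1380 coding bases for HW_39414_g and 798 for HW_47187_g. An error in a predicted length would move the level, and the predictions were not tested. Near the bottom of the tested genes were the LHC-like stress genes *ELIP1* HW_17891_g (20.3 ± 9.72 CPM per kb) and *ELIP2* HW_27214_g (15.7 ± 6.75).

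Not every member of the family could be measured. *LHCA1* and *LHCA2* encode abundant photosystem I antenna proteins in *A. thaliana*, yet the 2 horseweed genes with the hit *LHCA1* had at most 10 and 26 counts in any library, and those with the hit *LHCA2* at most 1. The 2 *LHCA1* genes have the same coding exon lengths (194, 103, 289 and 155 bases), and so do the 2 *LHCA2* genes (59, 186, 38, 515 and 15 bases). Of the 10 antenna genes that share their hit and all coding exon lengths with another gene, 6 (60.0%) stayed under 10 counts in every library, against 2 of the other 30 (6.67%). Among all predicted genes with an *A. thaliana* hit, the shares were 85.4% of 6392 genes with such a copy and 43.0% of 32463 without. How reads that fit several copies equally were counted, and its part in these low values, was not tested. The *LIL3:2* copy HW_43309_g had at most 37 counts in any library. Among the tests of fold change it entered only the 2,4-D by time term, and it also entered the copy ratios below. Also under 10 counts in every library were all 3 *LIL3:1* copies and 3 of the 5 *ELIP2* copies, 4 of these 6 genes with 0 counts, and a count of 0 allows up to 3 counts (0.113 to 0.285 CPM, depending on the library, for counting error only). No horseweed gene had *LHCA5*, *LHCB1.2*, *LHCB1.5*, *LHCB2.3*, *LHCB4.1*, *LHCB4.3* or *LHCB7* as its best hit, so the hits name the nearest *A. thaliana* gene and do not order the copies.

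At 1 HAT no antenna gene was called lower or higher than in water under any herbicide by the quasi-likelihood test of edgeR, p-values being adjusted across all genes tested after Benjamini and Hochberg. The lowest adjusted p among the 29 genes was 0.0841 (*ELIP1* under dicamba), and log2 fold changes ran from -1.64 to 0.84. At an unadjusted p under 0.05 there were 3 genes under 2,4-D, 5 under dicamba and 0 under halauxifen-methyl. No share of all genes at that unadjusted threshold is given, so these counts have no background. The shares that follow are for the adjusted p. Of all genes tested, 0.919% were called lower under 2,4-D, 1.19% under dicamba and 0% under halauxifen-methyl, and 0.898%, 1.23% and 0.176% were called higher.

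The gene nearest to a call at 1 HAT, *ELIP1*, is an early light-inducible gene, whose products bind chlorophyll for a short time under strong light or greening in *A. thaliana*. *ELIP1* HW_17891_g had 10.3, 22.6, 21.0 and 7.94 CPM in water at 1 HAT and 2.56, 6.57, 6.09 and 4.55 under dicamba, so every dicamba library was below every water library. DESeq2's Wald test called 3 genes lower under dicamba at 1 HAT, *ELIP1* (adjusted p = 0.0106) and the *ELIP2* copies HW_27214_g (0.025) and HW_30397_g (0.0354), and edgeR's exact test called *ELIP1* (0.0199). Without water replicate 4 of 1 HAT, the quasi-likelihood test called 1 antenna gene lower under dicamba. Under 2,4-D, DESeq2 called 1 gene higher, the *LIL3:2* copy HW_48072_g (log2 fold change 0.50, adjusted p = 0.0293), whose product in *A. thaliana* anchors an enzyme of chlorophyll synthesis in the membrane. These genes were named for their calls by the other tools, after their values were seen. The shares of all genes called by those tools are not given, so their counts have no background. In 2,4-D at 1 HAT the libraries of 1 gene lay wholly below water (4.42% of all genes tested) and of 1 wholly above (4.19%), in dicamba of 2 below (5.48%) and 0 above (5.11%), and in halauxifen-methyl of 0 below (1.2%) and 0 above (2.08%).

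By 6 HAT most antenna genes had lower counts under all herbicides. Under 2,4-D 18 of the 29 genes tested fell, under dicamba 17 and under halauxifen-methyl 17, and 0 rose under any of them. Of all genes tested, 9.41%, 3.96% and 6.13% were called lower in the same comparisons and 10.3%, 5.64% and 8.55% higher. The median log2 fold change of the antenna genes was -1.17 under 2,4-D, -1.18 under dicamba and -1.36 under halauxifen-methyl, where the medians of all genes tested were 0.02, 0.06 and 0.05. In 17 genes under each herbicide the highest herbicide library lay under the lowest water library, a pattern found in 12.1%, 8.07% and 9.63% of all genes, and 0 antenna genes lay wholly above water (14.5%, 10.1% and 13.9% of all genes). The comparisons share the water libraries, so their counts are not separate evidence.

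**Figure D1:**
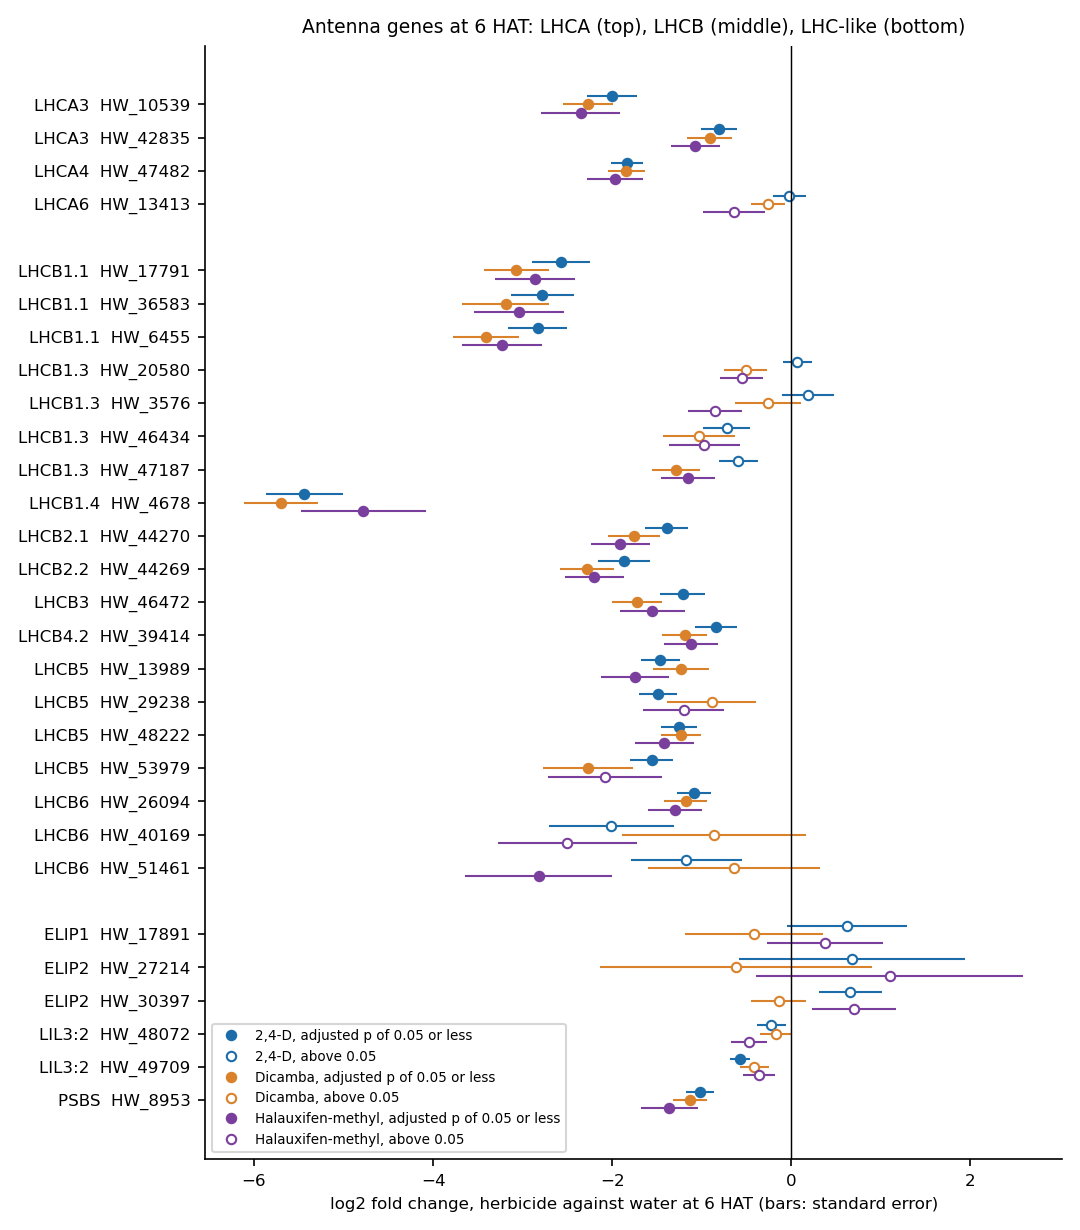
Log2 fold change of 29 antenna genes at 6 HAT for each herbicide against water (x axis), with the standard error as a bar and a filled point where the adjusted p was 0.05 or less. The *LHCB1.4* gene lies farthest left, between -5.70 and -4.78, the *LHCB1.1* copies lie between -3.41 and -2.57, and the *LHCB1.3* copies lie between -1.29 and 0.19.

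Calls were spread over both antenna families. Of the 4 *LHCA* genes tested, 3 fell under each herbicide, with medians of -1.32, -1.38 and -1.52 for 2,4-D, dicamba and halauxifen-methyl. Of the 19 *LHCB* genes, 13 fell under each, with medians of -1.39, -1.23 and -1.75. Of the 6 LHC-like genes 2, 1 and 1 fell. In all, 15 genes were called under all 3 herbicides, 2 under 2 of them, 3 under 1 and 9 under none. The share of all genes called under several herbicides is not given, so these counts have no background. The comparisons also share the water libraries. Leaving out single libraries moved the count under halauxifen-methyl most, to 9 without halauxifen-methyl replicate 1, 10 without water replicate 2 and 11 without water replicate 3, and gave 17 to 21 under 2,4-D and 15 to 18 under dicamba.

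The 8 genes with an LHCB1 hit, the most abundant antenna protein of photosystem II, ranged from the largest changes of the family to changes near 0. *LHCB1.4* HW_4678_g (LHB1B1 in the annotation; coding bases from 1524 to 2192 of its contig) had 239, 218, 163 and 98.7 CPM in water at 6 HAT. Under 2,4-D it had 5.35, 1.56, 6.04 and 3.80 CPM, under dicamba 3.14, 5.65, 2.85 and 2.07, and under halauxifen-methyl 3.08, 1.14, 8.15 and 13.9. No herbicide library came near the water range, and the lowest of these values still rested on 30 counts. The log2 fold changes were -5.44 ± 0.43 (SE), -5.70 ± 0.41 and -4.78 ± 0.70, that is 43.5-fold, 51.9-fold and 27.4-fold lower, with adjusted p of 5.37e-06, 1.36e-05 and 0.00142 by edgeR's quasi-likelihood test.

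The 3 *LHCB1.1* copies (CAB2 in the annotation) changed next most. HW_6455_g, the highest of them and a gene with a single coding exon of 798 bases, had 4143, 4488, 3729 and 2005 CPM in water at 6 HAT. Under 2,4-D it had 633, 263, 694 and 437 CPM, under dicamba 366, 505, 176 and 289, and under halauxifen-methyl 359, 142, 407 and 618. All herbicide libraries were below all water libraries, and the gene was 7.10-fold, 10.6-fold and 9.40-fold lower (adjusted p = 0.000106, 0.000169 and 0.00107). The copies HW_36583_g and HW_17791_g were lower to a like degree, by 6.87-fold, 9.16-fold and 8.21-fold and by 5.94-fold, 8.39-fold and 7.25-fold. HW_17791_g was predicted with 8 coding exons and 1710 coding bases, and whether all of them belong to the same gene was not tested.

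The 4 *LHCB1.3* copies (CAB1), which held the most counts, changed least among the LHCB1 genes. HW_47187_g had 50654, 47422, 42996 and 29243 CPM in water at 6 HAT, against 30337, 21919.7, 35978 and 24642 under 2,4-D, where the groups overlapped and the log2 fold change of -0.59 ± 0.22 did not pass the test (adjusted p = 0.0922). Under dicamba it had 19931, 17859, 11255 and 19869.9 CPM and under halauxifen-methyl 18153, 12390.4, 22681 and 23811, all below the water libraries. There the gene fell by 1.29 ± 0.27 and 1.15 ± 0.30 on the log2 scale (adjusted p = 0.0106 and 0.0280). The halauxifen-methyl call was lost without any of 6 of the 8 libraries (water replicates 1, 2 and 3 and halauxifen-methyl replicates 1, 2 and 3), with adjusted p from 0.0546 to 0.0942, and the 2,4-D change passed without water replicate 4 (0.0155), by DESeq2 (0.0291) and by edgeR's exact test (0.0397). With no low-count filter the halauxifen-methyl change did not pass (0.0693).

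The other *LHCB1.3* copies did not pass edgeR's quasi-likelihood test under any herbicide, but some passed by other tools. HW_46434_g had log2 fold changes of -0.72, -1.03 and -0.97 under 2,4-D, dicamba and halauxifen-methyl, and passed under 2,4-D by DESeq2 (adjusted p = 0.0206), by edgeR's exact test (0.0305) and without water replicate 4 (-0.95, adjusted p = 0.00132) and under halauxifen-methyl without halauxifen-methyl replicate 4 (-1.35, 0.0369). HW_20580_g had 0.07, -0.51 and -0.55, and the rare copy HW_3576_g had 0.19, -0.26 and -0.85, the last of which passed without water replicate 4 (-1.06, adjusted p = 0.0342) and was at the threshold by the exact test (0.05). Together the 4 copies supplied 52.3% ± 1.57 of the summed *LHCB* CPM in water at 1 HAT and 64.1% ± 2.86 in water at 6 HAT (62.0 to 68.2%). Under the herbicides at 6 HAT they supplied 76.7% ± 1.49, 72.9% ± 2.57 and 75.1% ± 1.2, and the lowest of these libraries, at 69.5%, was above the highest water library. This grouping was chosen after the values were seen and carries no test.

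**Figure D2:**
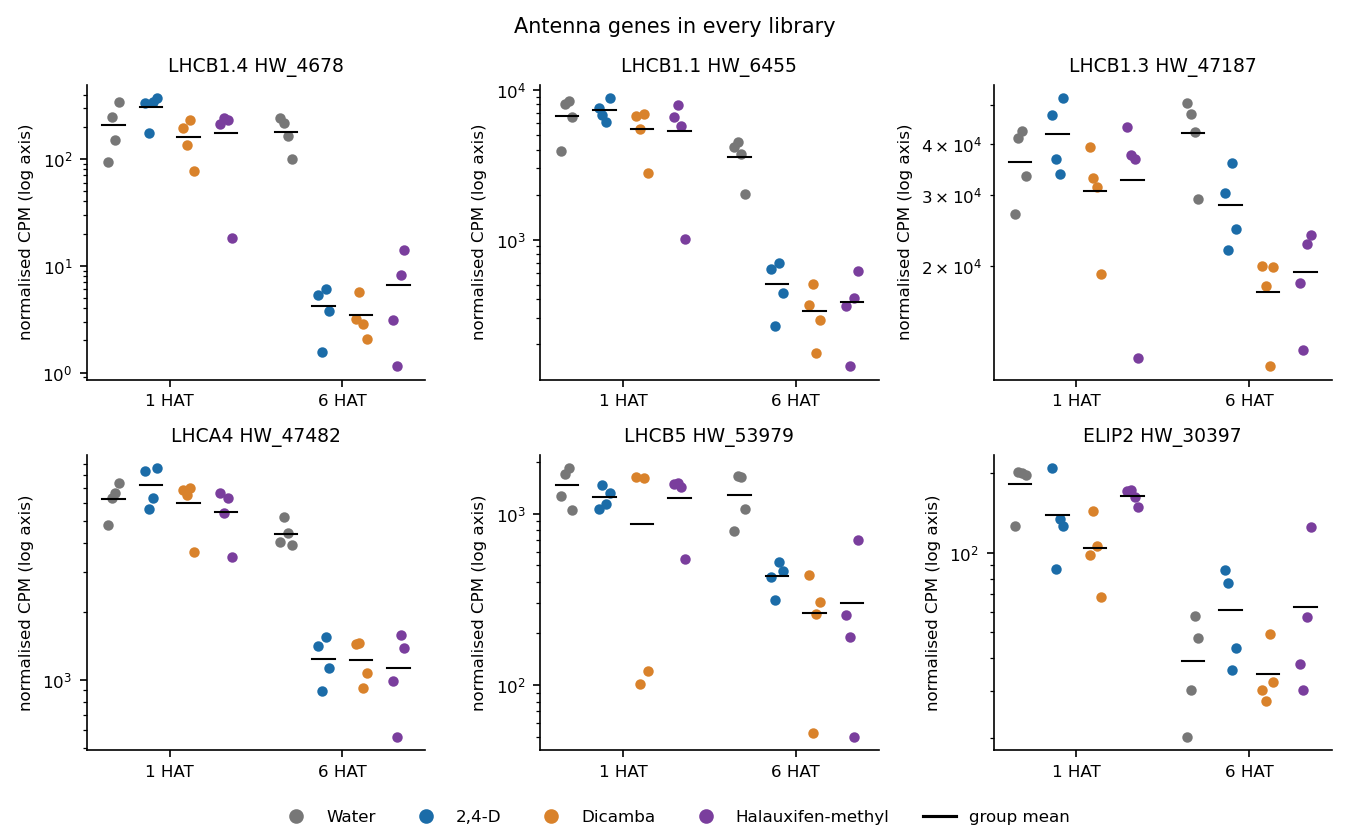
Normalised CPM (y axes, log scale, not starting at 0) of 6 antenna genes in each of the 32 libraries, grouped by spray at 1 and 6 HAT, with the group mean as a line. At 6 HAT *LHCB1.4* and *LHCB1.1* drop far below water, *LHCB1.3* HW_47187_g drops less, *LHCB5* HW_53979_g has single libraries far under their groups at both times, and *ELIP2* falls with time in water too.

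The ratio of an LHCB1 gene to HW_47187_g within a library sets depth and scaling aside. For HW_6455_g the log2 ratio was -2.46 ± 0.21 (SD, n = 4) in water at 1 HAT and -3.60 ± 0.20 in water at 6 HAT. At 6 HAT it was -5.87 ± 0.35 under 2,4-D, -5.75 ± 0.43 under dicamba and -5.79 ± 0.49 under halauxifen-methyl. The highest herbicide library (-5.14) lay below the lowest water library of that time (-3.87). For HW_4678_g the ratio was -7.94 ± 0.23 in water at 6 HAT and -12.85 ± 0.61, -12.35 ± 0.71 and -12.02 ± 1.17 after the herbicides. These ratios were chosen after the values were seen and carry no test.

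The 2 genes with LHCB2 hits lie on the same contig and strand, from 853 to 2305 (*LHCB2.2*, HW_44269_g) and from 3965 to 5107 (*LHCB2.1*, HW_44270_g). LHCB2 proteins are, with LHCB1, the antenna proteins whose phosphorylation shifts light capture between the photosystems. HW_44270_g had 13934, 15950.2, 14874 and 9135 CPM in water at 6 HAT, 6386, 3608, 6443 and 4075 under 2,4-D, 4782, 4866, 2292 and 3786 under dicamba, and 3263, 1901, 4527 and 4682 under halauxifen-methyl. It fell by 1.39 ± 0.24, 1.76 ± 0.29 and 1.91 ± 0.33 on the log2 scale, with no overlap between herbicide and water libraries. Its neighbour HW_44269_g had 3873, 4616, 3827 and 2145 CPM in water and at most 1312 in any herbicide library, and fell by 1.87 ± 0.29, 2.28 ± 0.30 and 2.2 ± 0.33. The adjusted p for both genes lay between 0.000655 and 0.00366.

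*LHCB3* HW_46472_g, the third partner of the trimers, had 1495, 2284, 2148 and 1419.8 CPM in water at 6 HAT, and its herbicide libraries all lay below, with 1084, 591, 953 and 532 under 2,4-D, 728, 640, 329 and 499.5 under dicamba and 478, 284, 774 and 959.8 under halauxifen-methyl. It fell by 1.21 ± 0.25, 1.72 ± 0.28 and 1.55 ± 0.36 on the log2 scale (adjusted p = 0.00485, 0.00207 and 0.0165). The halauxifen-methyl call was lost without water replicates 2 or 3 or halauxifen-methyl replicate 1 (adjusted p = 0.0515 to 0.0576).

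Most minor antenna genes fell as well. *LHCB4.2* HW_39414_g had 9595, 13931, 12046 and 6708 CPM in water at 6 HAT, 6187, 4541, 6855 and 5898 under 2,4-D, 5299, 4178, 3897 and 4962 under dicamba and 4567, 3377, 4799 and 6744 under halauxifen-methyl. Only the dicamba libraries lay wholly below water, and 1 library each of 2,4-D and halauxifen-methyl exceeded the lowest water library. The gene fell by 0.84 ± 0.23, 1.19 ± 0.25 and 1.12 ± 0.30 on the log2 scale (adjusted p = 0.0214, 0.0104 and 0.0317). The call under 2,4-D was lost without water replicates 2 or 3 or 2,4-D replicates 1, 2 or 4 (adjusted p = 0.0556 to 0.0736), and that under halauxifen-methyl without water replicates 2 or 3 or halauxifen-methyl replicates 1, 2 or 3 (0.0764 to 0.100). *LHCB6* HW_26094_g had 868, 1007, 943 and 659 CPM in water against at most 512 in any herbicide library, and fell by 1.09 ± 0.19, 1.18 ± 0.24 and 1.3 ± 0.30, a call lost under halauxifen-methyl without halauxifen-methyl replicate 1 (adjusted p = 0.0545). The rare *LHCB6* copies HW_40169_g and HW_51461_g, which share their exon lengths, reached at most 19.0 CPM in any library of water at 6 HAT, and of their 6 quasi-likelihood tests 1 passed, HW_51461_g under halauxifen-methyl (log2 fold change -2.82 ± 0.82, adjusted p = 0.0441). HW_40169_g passed under 2,4-D without water replicate 1 (adjusted p = 0.0351) or 4 (0.0108) and under halauxifen-methyl without the same replicates (0.0481 and 0.0212). It also passed under 2,4-D and halauxifen-methyl by DESeq2 (0.0156 and 0.00487), by the exact test (0.0322 and 0.018) and with at least 10 counts required in every library (0.0222 and 0.0204), and under halauxifen-methyl in one fit of all 32 libraries (0.0189). The call of HW_51461_g was lost without water replicates 2 or 3 or halauxifen-methyl replicates 1, 2 or 3 (adjusted p = 0.0878 to 0.182).

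*LHCB5* had 4 copies, and they did not keep constant proportions between plants. HW_48222_g, the highest, had 3485, 4249, 3969 and 2467 CPM in water at 6 HAT, and 1776, 1238, 1670 and 1254 under 2,4-D, 1624, 1768, 1283 and 1297 under dicamba and 1081, 672, 1664 and 1889 under halauxifen-methyl. All of the herbicide libraries were lower, and the gene fell by 1.25 ± 0.20, 1.23 ± 0.22 and 1.42 ± 0.33 on the log2 scale (adjusted p = 0.000847, 0.00441 and 0.0170). The halauxifen-methyl call was lost without water replicates 2 or 3 or halauxifen-methyl replicate 1 (0.0530 to 0.0603). HW_13989_g also fell under each herbicide, by 1.46, 1.23 and 1.75, and its dicamba call was lost without water replicates 2 or 3 or dicamba replicates 1 or 4 (adjusted p = 0.0756 to 0.0972). HW_29238_g fell under 2,4-D, by 1.49 (adjusted p = 0.000332), and had log2 fold changes of -0.89 and -1.20 under dicamba and halauxifen-methyl that did not pass (0.373 and 0.114), the latter passing by DESeq2 (0.0464). Without dicamba replicate 2 the dicamba change of HW_29238_g was -1.75 and passed (adjusted p = 0.00902).

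The *LHCB5* copy HW_53979_g was low in single plants and not in others of their group. In dicamba at 1 HAT it had 1641, 101, 1622 and 120.3 CPM, at 6 HAT 439, 52.6, 258 and 305 under dicamba and 256, 191, 49.7 and 700.3 under halauxifen-methyl. As a log2 ratio to HW_48222_g in the same library, it was -5.26 and -4.47 in dicamba replicates 2 and 4 of 1 HAT, -5.07 in dicamba replicate 2 of 6 HAT and -5.07 in halauxifen-methyl replicate 3 of 6 HAT. In the other 28 libraries this ratio lay between -2.38 and -1.20. The ratio of HW_29238_g to HW_48222_g was at its highest in dicamba replicate 2 of 6 HAT (-0.52), and in the other 3 of those libraries it was -1.20, -1.21 and -1.16, against -2.80 to -1.42 in the remaining 28. Why these plants differed was not tested. HW_53979_g was called lower under 2,4-D (log2 fold change -1.56 ± 0.24) and dicamba (-2.27 ± 0.50, adjusted p = 0.0142), and not under halauxifen-methyl (-2.08 ± 0.64, adjusted p = 0.0561), where it passed without halauxifen-methyl replicate 3 (-1.74, adjusted p = 0.0436) or replicate 4 (-2.97, 0.00612). The halauxifen-methyl change of HW_53979_g also passed by DESeq2 (adjusted p = 0.00332), by the exact test (0.00899), with no low-count filter (0.0148), with at least 10 counts in every library (0.0326) and in one fit of all 32 libraries (0.0367), a fit in which the 2,4-D call was lost (0.14).

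The tested *LHCA* genes of photosystem I fell, *LHCA6* aside. *LHCA4* HW_47482_g had 4074, 5234, 4424 and 3947 CPM in water at 6 HAT, 1405, 893, 1537 and 1129 under 2,4-D, 1434, 1451, 924 and 1076 under dicamba and 986, 559, 1579.8 and 1377 under halauxifen-methyl. No treated library approached the water range, and the gene was 3.55-fold, 3.57-fold and 3.93-fold lower (adjusted p = 3.33e-05, 0.000267 and 0.00223). *LHCA6* HW_13413_g, whose product in *A. thaliana* helps to join photosystem I to the NADH dehydrogenase-like complex, had 206, 310.4, 231 and 199.9 CPM in water and 286, 213, 259 and 174 under 2,4-D. Its log2 fold changes of -0.02, -0.26 and -0.64 did not pass the test, but without halauxifen-methyl replicate 4 the last passed (-1.07, adjusted p = 0.0264). With total counts alone as scaling the first and second became 0.17 and 0.03.

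*LHCA3* had a high and a low copy. HW_42835_g, the high one, had 12577, 14648, 13802 and 8167 CPM in water at 6 HAT, 7254, 5942, 7874 and 6913 under 2,4-D, 6190.5, 8662, 5015 and 6135 under dicamba and 4955, 4448, 6793 and 7299.7 under halauxifen-methyl. It fell by 0.81 ± 0.20, 0.91 ± 0.25 and 1.07 ± 0.27 on the log2 scale, and 1 dicamba library exceeded the lowest water library. The call under dicamba (adjusted p = 0.0471) was lost without any of water replicates 1, 2 or 3 or dicamba replicates 1, 3 or 4 (0.0749 to 0.159), and that under halauxifen-methyl (0.0237) without water replicates 2 or 3 or halauxifen-methyl replicates 1 or 2 (0.0593 to 0.0864). The low copy HW_10539_g had 732, 1204, 958 and 530.3 CPM in water, 296, 144, 237 and 176 under 2,4-D, 219, 197, 142 and 142 under dicamba and 113, 66.4, 205 and 284 under halauxifen-methyl. It was 4.01-fold, 4.83-fold and 5.11-fold lower, with no overlap.

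Copies of the same hit were compared within libraries, as the log2 ratio of each copy to the highest copy, with a two-sided exact permutation test of 4 against 4 libraries. The 14 ratios and 3 herbicides gave 42 tests, in which the smallest possible p is 0.0286. In 8 tests the herbicide and water libraries of 6 HAT did not overlap, 3 lower and 5 higher, and after adjustment over the 42 tests 0 passed 0.05 (smallest adjusted p = 0.150). Without water replicate 1 the ratios that did not overlap numbered 14. No share over copy pairs of other genes is given beside these counts. The tests share the water libraries, and ratios of the same hit share the highest copy, so they are not separate evidence.

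The 3 lower ratios were those of *LHCA3*. HW_10539_g to HW_42835_g was -3.88 ± 0.21 in water at 6 HAT and -5.08 ± 0.34, -5.21 ± 0.30 and -5.31 ± 0.59 under 2,4-D, dicamba and halauxifen-methyl (exact permutation p = 0.0286 each, adjusted p = 0.150). In water this ratio was also lower at 6 HAT than at 1 HAT, where it was -2.42 to -2.21. Already at 1 HAT all dicamba libraries lay below water (-3.60 to -2.49). Those of 2,4-D (-2.29 to -2.06) and halauxifen-methyl (-3.98 to -2.30) overlapped water at that time. The higher ratios included *LHCB1.3* HW_20580_g to HW_47187_g, which was -2.11 ± 0.21 in water and -1.47 ± 0.10 under 2,4-D and -1.37 ± 0.16 under dicamba. Under halauxifen-methyl, with -1.54 ± 0.28, the groups overlapped (exact permutation p = 0.0571). In water at 1 HAT this ratio was -1.78 to -1.46, above every water library of 6 HAT (-2.27 to -1.81). The 2,4-D (-1.61 to -1.39) and dicamba (-1.60 to -1.24) libraries of 6 HAT overlapped the range of water at 1 HAT. For *LHCB1.1*, HW_17791_g to HW_6455_g was -1.40 ± 0.14 in water, -1.15 ± 0.02 under 2,4-D and -1.06 ± 0.31 under halauxifen-methyl, and for *LHCB1.3*, HW_3576_g to HW_47187_g was -8.46 ± 0.25 in water and -7.69 ± 0.29 under 2,4-D.

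**Figure D3:**
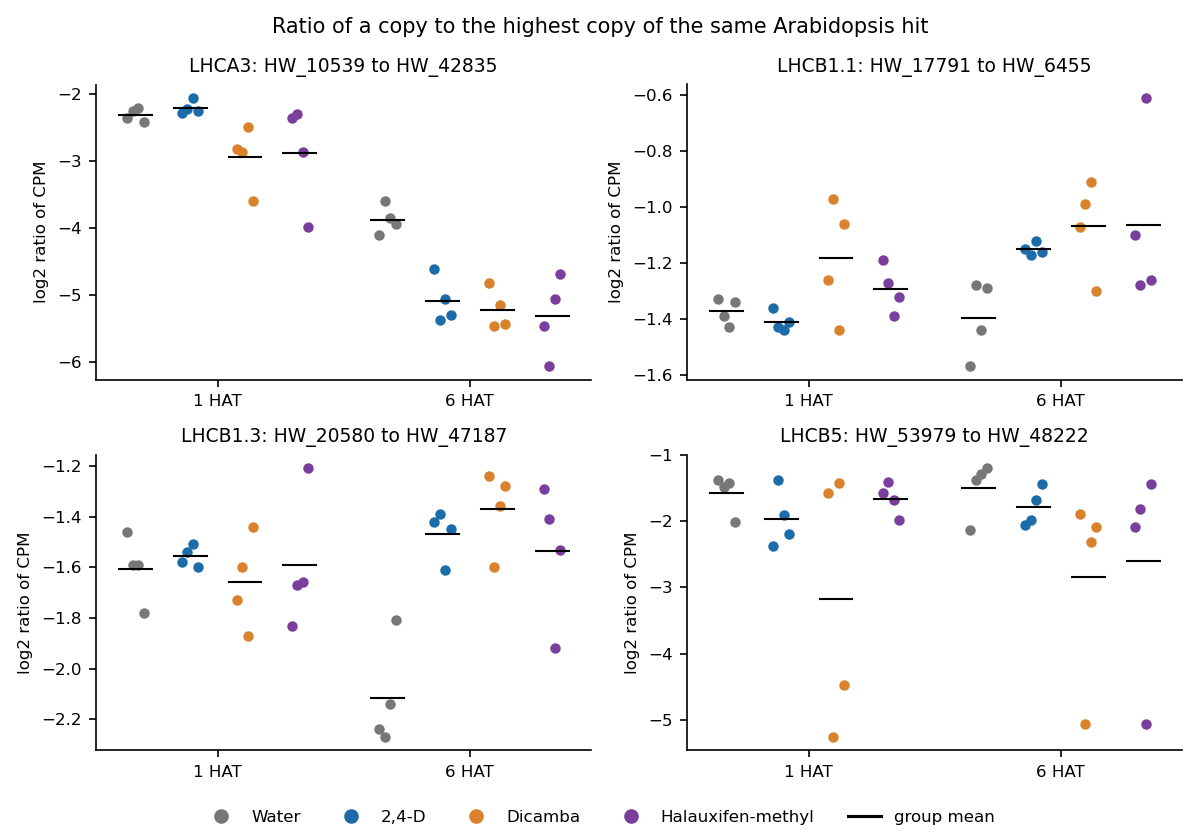
Log2 ratio of the CPM of a copy to the highest copy of the same hit (y axes) in each library at 1 and 6 HAT, with the group mean as a line. The *LHCA3* ratio is lowest in the herbicide libraries of 6 HAT, the *LHCB1.3* ratio is lowest in water at 6 HAT (mean -2.11), and 4 libraries stand far below the rest in the *LHCB5* ratio.

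Summed over each family, LHCA and LHCB transcripts were both lower under the herbicides. The 8 *LHCA* genes summed to 17589, 21397, 19415 and 12845 CPM in water at 6 HAT, and the herbicide libraries ranged from 5144 to 10525. The 19 *LHCB* genes summed to 142339, 150099, 133892 and 82314 CPM in water, and the herbicide libraries from 31635 to 89986, so that 1 library of 2,4-D exceeded the lowest water library. On the log2 scale, with the larger SD of the groups in brackets, LHCA changed by -1.02 (0.32), -1.14 (0.32) and -1.30 (0.40), and LHCB by -0.78 (0.40), -1.30 (0.46) and -1.25 (0.51) under 2,4-D, dicamba and halauxifen-methyl. The difference LHCB minus LHCA was 0.24, -0.16 and 0.05. These sums are values with no test.

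The sums rest on the highest genes. Without the highest gene of each family, LHCA changed by -1.72, -1.80 and -2.03, and the difference LHCB minus LHCA became 0.84, 0.50 and 0.73. Without the LHCB1.3 copies, the log2 ratio of LHCB to LHCA was 1.34 ± 0.10 in water at 6 HAT (1.2 to 1.42) and 0.96 ± 0.15, 0.77 ± 0.18 and 0.86 ± 0.20 after the herbicides, with no herbicide library above 1.12. With them it was 2.82 ± 0.14 in water and 3.07 ± 0.10, 2.66 ± 0.25 and 2.87 ± 0.19 after the herbicides. Without the LHCB1.3 copies the ratio was thus lower than in water under every herbicide, with no overlap. These copies were set aside after the values were seen, as the LHCB1 genes that changed least. The high *LHCA3* copy HW_42835_g stayed in LHCA, so the lower ratio follows in part from the choice and carries no test. With the LHCB1.3 copies, the libraries of every herbicide overlapped those of water (2.68 to 3.02). They ran from 2.96 to 3.18 under 2,4-D, from 2.34 to 2.87 under dicamba and from 2.67 to 3.04 under halauxifen-methyl. Across the 23 tested *LHCA* and *LHCB* genes, the level in water at 1 HAT and the log2 fold change at 6 HAT had Spearman's rho of 0.23, -0.21 and 0.30, a description over genes measured in the same libraries.

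**Figure D4:**
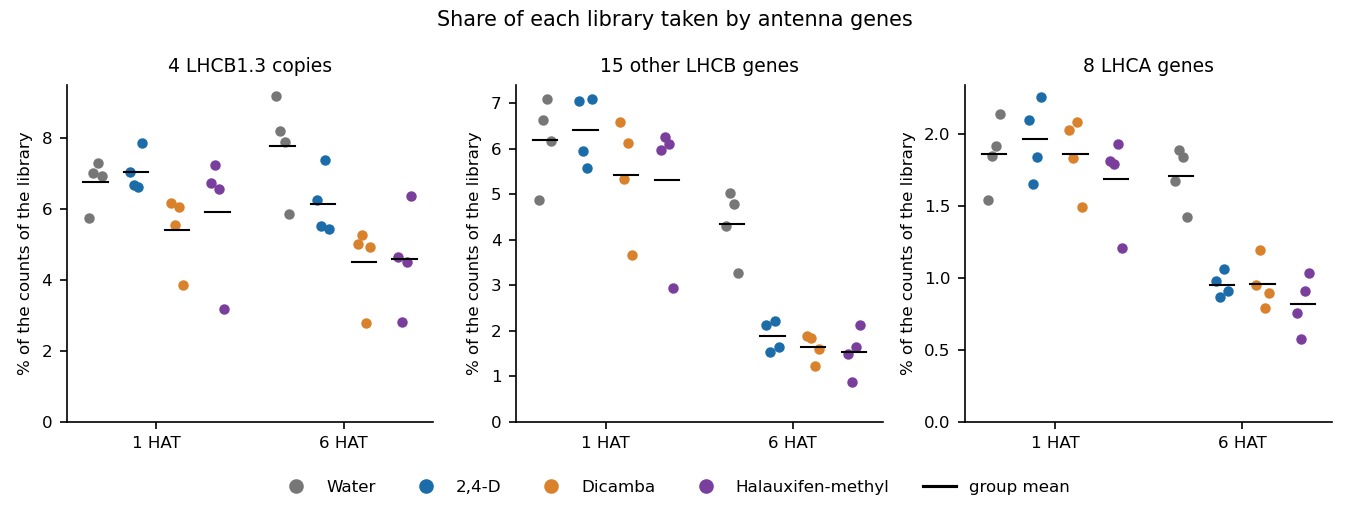
Percentage of the counts of each library (y axes from 0) taken by the 4 *LHCB1.3* copies, the 15 other *LHCB* genes and the 8 *LHCA* genes, by spray at 1 and 6 HAT, with the group mean as a line. The other *LHCB* genes drop from 4.35% in water to 1.53 to 1.87% after the herbicides at 6 HAT, while the *LHCB1.3* copies drop from 7.78% to 4.5 to 6.15%.

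Among the LHC-like genes, *PSBS* HW_8953_g, whose product switches the antenna to heat dissipation in strong light, fell as well. It had 2789.5, 3536, 2827 and 2325 CPM in water at 6 HAT and at most 1624 in any herbicide library. It fell by 1.02 ± 0.16, 1.13 ± 0.19 and 1.36 ± 0.32 on the log2 scale (adjusted p = 0.000900, 0.00270 and 0.0179), and the halauxifen-methyl call was lost without water replicate 2 (0.0569) or halauxifen-methyl replicate 1 (0.0627). The *LIL3:2* copy HW_49709_g fell under 2,4-D, by 0.57 ± 0.11 (adjusted p = 0.00244), from 155, 154, 153 and 139.7 CPM to 106, 92.2, 104 and 100.3, a call lost in one fit of all 32 libraries (0.205). HW_48072_g, with log2 fold changes of -0.22, -0.17 and -0.47, passed only under halauxifen-methyl without halauxifen-methyl replicate 4 (-0.66, adjusted p = 0.0285). The ELIP genes did not pass under any herbicide: *ELIP2* HW_30397_g had 20.1, 30.4, 57.7 and 47.6 CPM in water at 6 HAT, and log2 fold changes of 0.66, -0.14 and 0.70. *ELIP1* HW_17891_g had 1.83, 3.19, 3.32 and 3.15 CPM in water, and its log2 fold changes were 0.62, -0.42 and 0.38.

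Water leaves changed between the times as well. Of the 29 genes tested in water at 6 against 1 HAT, 7 fell and 0 rose, where 7.42% of all genes were called lower and 6.44% higher. In 6 antenna genes the libraries did not overlap (11.6% of all genes lower, 10.6% higher). The ELIP genes were the farthest: *ELIP2* HW_30397_g went from 126, 203, 201 and 198 CPM to the 6 HAT values above (log2 fold change -2.25 ± 0.30), *ELIP2* HW_27214_g changed by -3.77 ± 0.98 and *ELIP1* by -2.45 ± 0.44. The others were *LHCA3* HW_10539_g (-1.52 ± 0.27), *LHCB1.1* HW_17791_g (-0.96 ± 0.28), *LHCB2.1* HW_44270_g (-0.92 ± 0.26) and *LHCA6* HW_13413_g (-0.89 ± 0.19), with adjusted p from 0.000670 to 0.0425 over the 7 genes. Without water replicates 2 or 3 of 1 HAT or water replicate 4 of 6 HAT the count was 4. The calls of *LHCB2.1*, *LHCB1.1* HW_17791_g and *ELIP2* HW_27214_g were among those lost, with adjusted p up to 0.122, 0.126 and 0.0955, and that of *LHCB2.1* was kept only without water replicate 1 of 1 HAT. Hour of the day and time since the water spray cannot be told apart here.

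The change against water differed between 6 and 1 HAT by the herbicide by time term in 17 of 30 genes for 2,4-D, 8 of 29 for dicamba and 5 of 29 for halauxifen-methyl, all toward lower values at 6 HAT, where 3.79%, 1.84% and 2.08% of all genes were called in that direction and 5.71%, 3.34% and 3.41% in the other. *LHCB1.4*, the 3 *LHCB1.1* copies and *LHCA4* were called for every herbicide. The count for halauxifen-methyl ran from 2 to 9 with single libraries left out. It was 9 without halauxifen-methyl replicate 4 of 1 HAT, 8 without halauxifen-methyl replicate 4 of 6 HAT, and 2 or 3 without any of 10 others, 6 of them water libraries.

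Between herbicides at 6 HAT, edgeR's quasi-likelihood test called 0 antenna genes in each of the 3 pairs. Of all genes tested, 0.104% were called lower and 0.415% higher for 2,4-D against dicamba, 5.07% and 2.96% for 2,4-D against halauxifen-methyl, and 0.272% and 0.217% for dicamba against halauxifen-methyl. At an unadjusted p under 0.05 there were 3, 3 and 0 genes, with no share of all genes at that threshold to set beside them. The libraries did not overlap in 1 gene for 2,4-D against dicamba, *LHCB1.3* HW_47187_g, higher with 2,4-D (log2 difference 0.69 ± 0.22, adjusted p = 0.342), where 2.81% of all genes lay wholly lower and 3.22% higher. For 2,4-D against halauxifen-methyl they did not overlap in 3 genes, all higher with 2,4-D (background 9.15% lower and 6.42% higher), HW_3576_g (1.03 ± 0.30, adjusted p = 0.0651), HW_20580_g (0.61 ± 0.22, 0.137) and HW_51461_g (1.63 ± 0.59, 0.138). For dicamba against halauxifen-methyl 0 genes were of this kind (3.89% and 3.07% of all genes). For 2,4-D against halauxifen-methyl DESeq2 called these 3 genes higher, the *LHCB1.3* copies HW_3576_g (log2 fold change 1.04, adjusted p = 0.00769) and HW_20580_g (0.62, 0.0385) and the *LHCB6* copy HW_51461_g (1.66, 0.0474), and the exact test called HW_3576_g (0.0155). No share of all genes is given for DESeq2 or the exact test. Without halauxifen-methyl replicate 4 the quasi-likelihood test called 3 genes higher. The application rates differ between the herbicides, and a p above the threshold does not show that the herbicides acted alike.

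Libraries of a group differed from each other in most antenna genes at once. Water replicate 4 of 6 HAT was the lowest of its group in 22 of the 23 tested *LHCA* and *LHCB* genes, and halauxifen-methyl replicate 2 of 6 HAT in 22. At 1 HAT, halauxifen-methyl replicate 4 was lowest in 21 and dicamba replicate 4 in 20. The share of all genes in which each of these libraries was lowest is not given, so the counts have no background. Halauxifen-methyl replicate 4 of 1 HAT had summed LHCB of 51653 CPM, where the other libraries of the group had 142688 to 149854. Without that library 0 antenna genes were called under halauxifen-methyl at 1 HAT, the same count as with it.

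Genes that act on the antenna were also measured. Of the 8 genes listed for assembly and state transitions 5 were tested, and of these 2 fell under 2,4-D, 0 under dicamba and 2 under halauxifen-methyl, and 0 rose, with medians of 0.05, -0.21 and -0.26. Of all genes tested, 9.41%, 3.96% and 6.13% were called lower in these comparisons and 10.3%, 5.64% and 8.55% higher. Those that fell were *STN7* HW_10071_g, whose kinase phosphorylates LHCB1 and LHCB2 in *A. thaliana*, and *TAP38* HW_32650_g, whose phosphatase reverses this. *STN7* had 211, 304, 256 and 255 CPM in water at 6 HAT, 182, 153, 171 and 168 under 2,4-D and 101, 90.3, 142 and 168 under halauxifen-methyl (log2 fold changes -0.60 and -1.03). *TAP38* changed by -0.42 and -0.98 in those comparisons, with every herbicide library lower. In water over time *STN7* (-0.79) and *CPFTSY* HW_38344_g (-0.59), the receptor of the chloroplast signal recognition particle, fell.

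Of the 4 genes that interconvert chlorophyll *a* and *b*, 0, 0 and 1 fell and 0 rose at 6 HAT under 2,4-D, under dicamba and under halauxifen-methyl, where 9.41%, 3.96% and 6.13% of all genes were called lower. *CAO* HW_53734_g, the oxygenase that makes chlorophyll *b*, had 169, 194, 172 and 188 CPM in water and 105, 105, 132 and 82.7 under halauxifen-methyl (log2 fold change -0.77 ± 0.16, adjusted p = 0.00810). In water it had risen with time by 0.91, from 90.1, 93.9, 83.1 and 110.4 CPM at 1 HAT, and so had *NYC1* HW_5629_g, a chlorophyll *b* reductase (1.34). *HCAR* HW_37851_g was called in the 2,4-D by time term (-0.90 ± 0.24).

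Of the 6 regulators, 5 of them tested, *PIF3* HW_14486_g rose under every herbicide at 6 HAT. In *A. thaliana* PIF3 is a light-labile transcription factor that holds down photosynthesis genes in the dark. It had 35.7, 26.2, 22.2 and 30.6 CPM in water at 6 HAT, against 98.7, 91.6, 116 and 138 under 2,4-D, 100.3, 99.0, 87.8 and 109 under dicamba and 122, 152, 149 and 104 under halauxifen-methyl. The herbicide libraries lay far above water at 6 HAT and in the range of water at 1 HAT and somewhat above it (82.8, 95.3, 87.2 and 117 CPM). The log2 fold changes were 1.96 ± 0.19, 1.80 ± 0.20 and 2.19 ± 0.20, and water over time gave -1.76 ± 0.20.

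*GLK1* HW_29131_g, which in *A. thaliana* activates antenna genes, fell under 2,4-D by 0.46 ± 0.14 and under halauxifen-methyl by 1.00 ± 0.16 (adjusted p = 0.0416 and 0.00217). It had 116, 116, 112 and 99.9 CPM in water at 6 HAT and 54.1, 57.5, 67.8 and 44.2 under halauxifen-methyl. Under dicamba it had 57.5, 41.2, 111 and 52.1, with 1 library at the water level, and -0.75 did not pass the test. In water over time *GLK1* rose by 0.64 and *HY5* HW_23347_g, a light-signalling factor, fell by 1.14. By the list, 1, 0 and 1 of the 5 regulators fell and 1, 1 and 1 rose under 2,4-D, dicamba and halauxifen-methyl, against 9.41%, 3.96% and 6.13% of all genes called lower and 10.3%, 5.64% and 8.55% higher, and at 1 HAT 0 genes of these lists were called under any herbicide.

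Markers of the leaf's cell types give the setting of these values. The 10 mesophyll genes (small Rubisco subunits and Rubisco activase, 2 of them at 0 counts in every library) summed to 38997 to 67165 CPM in water at 6 HAT, 23758 to 34504 under 2,4-D, 18791 to 25705 under dicamba and 11398 to 27851 under halauxifen-methyl, with no overlap with water. Of the 7 tested, 3, 3 and 6 were called lower, where 9.41%, 3.96% and 6.13% of all genes were. Of the 4 epidermis genes, 2 were at 0 and HW_25586_g had at most 12 counts in any library, so their sum rests on *FDH* HW_45215_g. This sum was 38.5 to 55.8 CPM in water and 28.9 to 50.2 after the herbicides. The 5 guard cell genes reached at most 0.0808 CPM and 3 were at 0, the companion cell gene *SUC2* reached at most 2.00, and the xylem gene *XCP2* was at 0. The mesophyll genes are themselves photosynthesis genes, and the paper lists HW_32431_g and HW_20259_g among those lowered by all herbicides. Their sums thus cannot tell fewer mesophyll cells from less RNA of these genes per cell. The part of a changed make-up of cells in the lower antenna levels was not tested.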

How the data were processed

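Per the paper's methods, the authors aligned reads to the horseweed draft genome with STAR (2.5.2b) and counted them per predicted gene with HTSeq (0.6.1), after quality checks with FastQC (0.11.2). The deposited table holds whole-number counts per gene for 32 libraries, not normalised, beside the annotation that chose the genes. How the counter treated strand and reads of several origins is not given in the sources used here.

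The members, lists and tests were chosen with earlier results of these data known. Comparisons used edgeR (4.0.16, R 4.3.3): TMM scaling, genes kept by a minimum count of 10, the quasi-likelihood test on the 8 libraries of a pair or 16 of a herbicide by time term, and Benjamini-Hochberg adjustment over all genes tested at 0.05. DESeq2 (1.42.0), edgeR's exact test, other scaling and filters, all 32 libraries in one fit, a replicate block and leaving out each library were alternatives. The test was checked on simulated counts. Copy ratios used 0.5 added counts. Each library is a leaf of a separate plant.

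The highest copy of each *A. thaliana* hit was named with its values. Further copies were named where their call or direction differed or their ratio was tested, and other genes where they passed a test. Total counts of 12588842 to 29111958 per library limit the precision of rare genes. No sequence was printed because none of the tables used holds any.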

Additional observations from a re-analysis of the deposited data

Results flagged for a closer look

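The herbicide by time term is the change against water at 6 HAT minus that at 1 HAT. Its estimate was below 0 in 27 of 30 genes for 2,4-D, 25 of 29 for dicamba and 26 of 29 for halauxifen-methyl. The share of all genes with an estimate below 0 is not given. The median estimate over all genes tested was 0.0, 0.06 and 0.02, and that of the antenna genes -1.19, -0.93 and -1.17. The antenna genes were measured in the same libraries, so they are not separate evidence. The term was called lower than 0 in 30 tests (log2 units, edgeR's quasi-likelihood test, adjusted p in brackets). For *LHCB1.4* HW_4678_g it was -5.99 (6.26e-06) for 2,4-D, -5.31 (2.66e-05) for dicamba and -4.54 (0.0115) for halauxifen-methyl. The *LHCB1.1* copy HW_6455_g had -2.95 (0.000215), -3.10 (0.000702) and -2.90 (0.0237), its copy HW_36583_g -2.90 (0.000400), -3.14 (0.00258) and -2.79 (0.0338), and HW_17791_g -2.67 (0.000423), -2.93 (0.000658) and -2.63 (0.0427). *LHCA4* HW_47482_g had -2.03 (0.000133), -1.77 (0.00248) and -1.79 (0.0166).

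For 2,4-D and dicamba the term also passed for *LHCA3* HW_10539_g with -2.14 (0.00116) and -1.71 (0.0251), *LHCB2.2* HW_44269_g with -1.74 (0.00895) and -2.11 (0.00722) and *PSBS* HW_8953_g with -1.15 (0.00209) and -0.93 (0.0357). For 2,4-D it passed in 9 further genes. Among the *LHCB5* copies, HW_13989_g had -1.53 (0.00482), HW_29238_g -1.49 (0.00354), HW_48222_g -1.46 (0.00390) and HW_53979_g -1.34 (0.0132). *LHCB2.1* HW_44270_g had -1.60 (0.0142), *LHCB3* HW_46472_g -1.23 (0.0201) and *LHCB6* HW_26094_g -1.13 (0.0120). The *LIL3:2* copies HW_49709_g and HW_48072_g had -1.0 (0.0142) and -0.72 (0.0391). Whether the term differs between herbicides was not tested.

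In 6 of 144 groups of 4 libraries checked, 1 library lay apart by Dixon's test, where chance gives about 7.2. Halauxifen-methyl replicate 4 of 1 HAT had a summed LHCA level of 10212 CPM against 19877 to 21703 in the rest of its group, and a summed LHCB level of 51653 against 142688 to 149854. *ELIP1* HW_17891_g had 1.83 CPM in 1 water library of 6 HAT against 3.15 to 3.32, and 8.75 in 1 halauxifen-methyl library of 6 HAT against 1.68 to 2.28. *LIL3:2* HW_49709_g had 139.7 CPM in 1 water library of 6 HAT against 153 to 155. *LHCB1.3* HW_3576_g had 226 CPM in 1 library of 2,4-D at 6 HAT against 109 to 117.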

How the results depend on the processing

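The lower calls at 6 HAT numbered 17 to 21 after 2,4-D, 15 to 18 after dicamba and 9 to 21 after halauxifen-methyl with single libraries left out, and 0 genes were higher in any of these fits. Single libraries left out gave 0 to 1 lower gene after dicamba at 1 HAT, 4 to 10 for water over time, 0 to 3 higher for 2,4-D against halauxifen-methyl, 2 to 9 for the halauxifen-methyl by time term, and 8 to 14 copy ratios without overlap. DESeq2 called 1 gene higher after 2,4-D and 3 lower after dicamba at 1 HAT, 11 for water over time, 3 for 2,4-D against halauxifen-methyl and 9 for the halauxifen-methyl by time term. The exact test called 1 lower gene after dicamba at 1 HAT and 1 higher for 2,4-D against halauxifen-methyl, and so did the fit with no low-count filter. With at least 10 counts in every library the latter count was 1 and that of the halauxifen-methyl by time term 8, and one fit of all 32 libraries gave 10 for the 2,4-D and 9 for the halauxifen-methyl by time term. The cause of these differences was not tested. Shares of all genes called under these alternatives are not given, so the counts have no background.

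Replicate numbers do not pair the plants (correlations of -0.237 to 0.339, 8 of 40 highest with the own number), and with a replicate block the calls were 17, 16 and 11 at 6 HAT, 4 for water over time and 16, 7 and 2 for the herbicide by time terms. Without the highest gene of each family the summed LHCA change was -1.72, -1.80 and -2.03, and LHCB minus LHCA 0.84, 0.50 and 0.73, so the dicamba value changed sign. For halauxifen-methyl, LHCB minus LHCA ran from -0.01 to 0.12 with single libraries left out, an alternative chosen after seeing the data, with -0.01 without halauxifen-methyl replicate 4.

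Scaling by total counts alone moved the median of all genes at 6 HAT by 0.18, 0.28 and 0.22 and the lower share of all calls from 47.8, 41.2 and 41.8% to 33.4, 21.8 and 25.5%, and called 18, 16 and 16 antenna genes lower. Under it, uncalled values changed sign for HW_13413_g (0.17 after 2,4-D, 0.03 after dicamba) and, after dicamba, for HW_30397_g (0.13), HW_3576_g (0.04) and HW_48072_g (0.09). With single libraries left out, uncalled changes ran across 0 after 2,4-D for HW_13413_g (-0.12 to 0.13), HW_17891_g (-0.26 to 0.93), HW_20580_g (-0.01 to 0.15), HW_27214_g (-0.23 to 1.5) and HW_3576_g (-0.12 to 0.32). They did so after dicamba for HW_27214_g (-1.04 to 0.19), HW_30397_g (-0.35 to 0.11) and HW_51461_g (-2.18 to 0.14), and after halauxifen-methyl for HW_17891_g (-0.55 to 0.63) and HW_27214_g (-0.22 to 1.92). Of the other values of single genes and ratios, 2079 kept direction and call, 82 lost the threshold and 31 passed it. Depth limits the genes with few counts, such as *ELIP1* and the rare *LHCB6* copies.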
